A study of Mus musculus with 37 samples.

Results

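The 10 genes described here, Adipoq, Lep, Retn, Cfd, Plin1, Cidec, Fabp4, Lpl, Pnpla2 and Lipe, are genes on which white fat cells rely, and they were chosen by name from the 24421 gene symbols of the count table. All 10 were found in it and were read in all 37 libraries. The white adipocyte stores triglyceride in a single large droplet, releases fatty acids from it on demand, and secretes hormones such as adiponectin and leptin into the blood. Fat surrounds the ureter and lies outside the muscle wall of the bladder, while urothelial carcinoma arises from the epithelium that lines both. Some of the 10 are also expressed outside adipocytes, for example Fabp4 in capillary endothelium and Lpl and Pnpla2 in muscle.

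Whole transcriptome sequencing covered wild-type (WT) female BALB/c mice that drank BBN, a nitrosamine carcinogen used to induce urothelial tumors, or tap water for 18 weeks. UT was the ureter on the cancer side of BBN-treated mice (11 libraries, 10 mice), UN the ureter on the side without cancer (7 libraries, 7 mice) and U the right and left ureter of untreated mice (6 libraries, 3 mice). BB was the bladder of BBN-treated mice (10 libraries, 10 mice) and B the bladder of the untreated mice (3 libraries, 3 mice). The description of BB 6 carries the letter T where those of the other 9 BB libraries carry N, while its title says only bladder, so it was kept in BB and left out as an alternative. All 7 UN ureters came from mice that also gave a UT ureter, mouse 5 gave 2 UT ureters (5R and 5L), and U and B shared their 3 mice, so libraries within and between groups were not all independent animals. Deposited counts per library ranged from 3557697 to 18793560, and 4 libraries lay under 8000000 (UN 6, BB 1, BB 3 and BB 4). The counts of these 4 were also concentrated in few genes. The 10 most abundant genes of any kind took 35.5% of counts in UN 6, against 6.15 to 16.0% in the other UN libraries. In BB 1, BB 3 and BB 4 they took 22.4, 29.5 and 21.5%, against 5.17 to 12.2% in the other BB libraries. Levels are given as CPM, the counts of a gene after the library total has been scaled to 1000000. In whole tissue, fewer fat cells and less RNA of these genes per fat cell cannot be told apart.

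Before the values, the sequences upstream of the transcription start are shown for the 3 members whose promoter window held a match to the C/EBP motif, since C/EBP alpha and PPAR gamma are the factors that direct adipocyte differentiation. RefSeq promoter windows, 250 bases before to 50 bases after the start on GRCm38.p6, were available for 8 of the 10 genes (10 windows). Fabp4 and Lpl had none. The motif TTNNGCAA was searched on both strands and was held by 10.8% of all 32851 windows and by windows of Lep, Plin1 and Cidec. The TATA motif TATAAA (13.6% of all windows) and the PPAR DR1 motif (0.381%) matched none of the 10 windows. The 250 bases before the start are printed 5′ to 3′ on the strand of the gene, with the matches in capitals. Lep lies on the plus strand (chr6:29059971-29060220), Plin1 on the minus strand (chr7:79732777-79733026) and Cidec on the minus strand, upstream of one of its 2 RefSeq starts (chr6:113434765-113435014).
Lep: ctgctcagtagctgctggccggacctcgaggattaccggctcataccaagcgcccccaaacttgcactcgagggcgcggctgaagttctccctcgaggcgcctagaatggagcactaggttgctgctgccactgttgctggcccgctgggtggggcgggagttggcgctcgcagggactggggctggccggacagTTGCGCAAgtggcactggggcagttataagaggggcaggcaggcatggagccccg
Plin1: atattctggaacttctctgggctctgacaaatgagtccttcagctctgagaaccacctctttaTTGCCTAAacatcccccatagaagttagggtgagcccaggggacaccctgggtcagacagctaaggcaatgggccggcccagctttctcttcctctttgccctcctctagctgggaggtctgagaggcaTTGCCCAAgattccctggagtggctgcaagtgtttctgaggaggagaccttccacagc
Cidec: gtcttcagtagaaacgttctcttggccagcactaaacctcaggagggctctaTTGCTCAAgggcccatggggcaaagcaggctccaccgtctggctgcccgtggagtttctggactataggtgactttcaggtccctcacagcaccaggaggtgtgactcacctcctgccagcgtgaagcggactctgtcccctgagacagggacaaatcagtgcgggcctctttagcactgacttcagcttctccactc
The match of Lep began 55 bases before the start and reads as a match on both strands, while Plin1 had a match at 187 and another at 58 bases, and Cidec 1 at 198 bases. A match is a run of letters and was not tested for binding.

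Adipocyte genes made up a large part of the RNA of the untreated ureter and a small part of that of the bladder. In U the 10 genes took 5.75 to 8.24% of all counts (median 6.21%), in UN 1.26 to 7.10% (median 2.58%) and in UT 0.0135 to 4.77% (median 1.51%). The bladders held 0.0689, 0.0861 and 0.290% in B and 0.0156 to 0.619% in BB (median 0.0346%). All 6 U libraries thus stood at a high level with little spread, UN spread widely below and into it, UT spread widely and lay wholly below it, and every bladder library lay below every U and UN library. In UT, 5 of the 11 libraries (UT 2, UT 4, UT 10, UT 5L and UT 5R, of 4 mice) held 0.0135 to 0.333% and the other 6 held 1.51 to 4.77%.

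**Figure D1:**
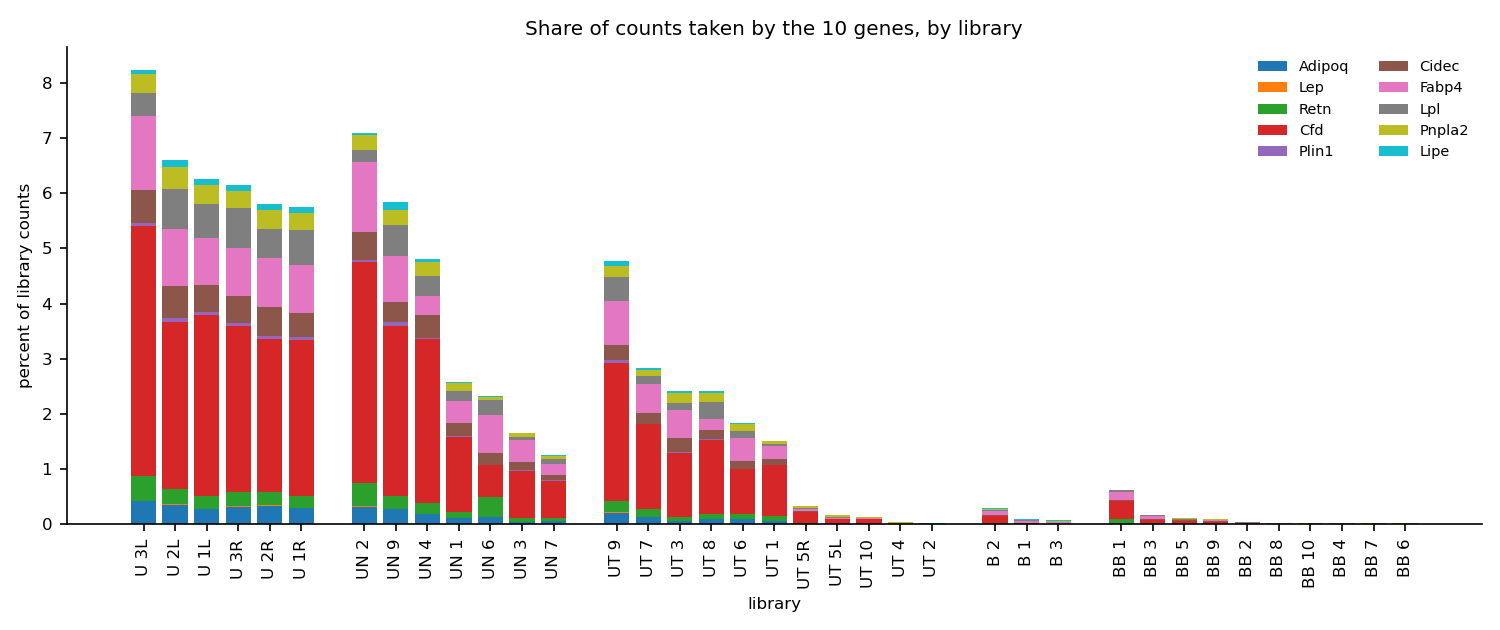
Percent of library counts (vertical axis) taken by each of the 10 genes in each of the 37 libraries, with libraries of a group placed from high to low. The U libraries reach 5.75 to 8.24%, and UT 2 at 0.0135% and BB 6 at 0.0156% are lowest in their groups.

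Markers of the other cell types of these tissues are given as their summed levels, without a test. UN 2, the UN library with most adipocyte RNA (7.10% of counts), had 10.2 summed CPM of 5 urothelial markers (the uroplakins Upk1a, Upk1b, Upk2 and Upk3a, and Krt5), where the other 6 UN libraries had 535 to 2822. UT 9, the UT library with most adipocyte RNA, had the lowest urothelial sum of UT (407), and UT 10, with 0.136%, had the highest (3916). Other libraries did not keep this order, as UT 2 (0.0135%) had 2185, UT 1 (1.51%) 2981 and UN 4 (4.80%) 2342. UT 4 was the library with high kidney tubule markers (2098 summed CPM, Umod at 931 CPM), against at most 39.4 in every other library. The 5 macrophage markers summed to 450 to 843 CPM in U, 227 to 6533 in UN and 771 to 3800 in UT. The 6 markers of adipose stroma, the fibroblast and progenitor compartment of fat, summed to 1116 to 1667 CPM in U, 387 to 3717 in UN and 171 to 3144 in UT. The part of these cell types in the results below was not tested.

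Untreated ureter was compared with untreated bladder first, as the tissue difference without carcinogen. All 10 members were higher in U than in B in every library, by log2 fold changes from 4.49 (Pnpla2) to 6.86 (Plin1), and all 10 passed the thresholds used throughout (edgeR quasi-likelihood test, at least 2-fold and FDR under 0.1). Of all 15318 genes tested, 15.7% were called higher and 14.3% lower in U. Of 18157 genes with at least 1 CPM in 3 or more libraries, 13.9% were higher and 40.5% lower in every U library than in any B library. For Adipoq, the adipocyte hormone adiponectin, the 6 U libraries held 2737 to 4128 CPM (median 3201) and the B libraries 9.55, 121 and 4.39 CPM. The groups did not overlap, and the log2 fold change was 6.58 ± 1.02 (SE; adjusted p = 0.000149). B 2 was the highest of the 3 bladders for each of the 10 genes. Without B 2 all 10 still passed and the log2 fold changes were larger, from 4.69 (Pnpla2) to 9.35 (Retn), with Adipoq at 9.28, Lep at 8.97 and Plin1 at 8.90, so the size and order of these differences rested on that library. The members' median log2 fold change was 6.55, beside -0.02 over all genes tested.

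A further 30 adipocyte genes were taken from lists of transcription factors, lipid synthesis, uptake, droplet regulation and other fat cell genes. The lists were chosen with earlier results of these data known, so they are not independent support. Of the 30, 29 were higher in U than in B, 0 were lower and their median log2 fold change was 4.53. Cd36, a fatty acid transporter, was higher by 5.97 ± 0.464 and Aqp7, the glycerol channel of adipocytes, by 6.29 ± 0.476. Pparg, the master regulator of adipocyte differentiation that urothelium also expresses, was higher by only 1.03 ± 0.134 (adjusted p = 3.43e-05). Its CPM was 289 to 371 in U and 191, 222 and 229 in B. Of 7 brown fat genes, 6 were higher in U, among them Ucp1, the uncoupling protein of brown adipocytes (8.40 ± 1.15), with 3.46 to 44.2 CPM in U and 0.0602, 0.0666 and 0.0697 CPM in B. Over the same comparison all 5 urothelial markers and 4 of 5 smooth muscle markers were lower in U, and 4 of 5 endothelial markers were higher.

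The cancerous ureter was then compared with the untreated ureter. Every one of the 10 genes was lower in UT than in U, by log2 fold changes from -3.10 (Lep) to -2.22 (Fabp4), and all 10 passed the thresholds, where 12.3% of 15658 genes tested were called lower and 18.7% higher. The members' median log2 fold change was -2.57 and that over all genes 0.11. With the 2 ureters of mouse 5 and of each untreated mouse summed, so that a mouse counts once in a group, all 10 remained negative but only Lpl, Pnpla2 and Lipe (3 genes) passed, and the others had adjusted p from 0.101 to 0.166. In that fit 8.23% of 16322 genes were called lower and 13.7% higher. For 7 genes (Adipoq, Retn, Cfd, Plin1, Cidec, Fabp4 and Pnpla2) every UT library lay below every U library, as did 3.83% of the 18157 genes (12.9% lay above without overlap). The adipokines, droplet proteins and enzymes are taken in turn below, with the levels of UN beside those of U and UT.

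**Figure D2:**
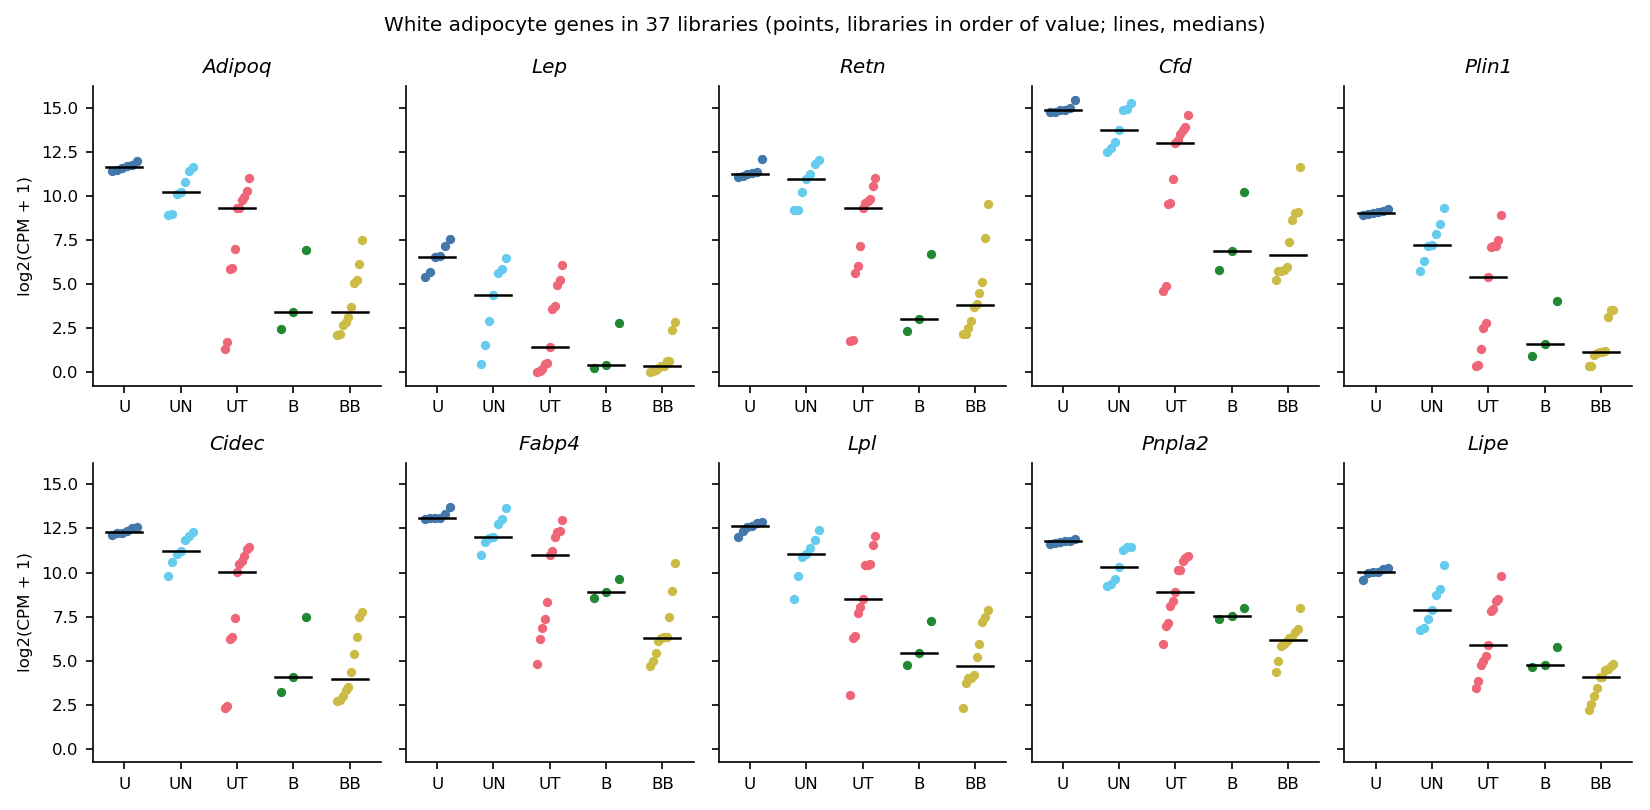
Level of each gene as log2(CPM + 1) on the vertical axis in the 5 groups, with a point for each of the 37 libraries and a line at the group median. The U points lie close together, the UT points spread down to bladder levels, and every U point lies above every B point.

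Gene positions are those of GENCODE on GRCm38. Among the secreted proteins, Adipoq (chr16:23146536-23158028) had 484 to 3181 CPM in UN (median 1221) and 1.51 to 2105 in UT (median 633), against 2737 to 4128 in U. UT did not overlap U, and UN overlapped both. The log2 fold change from U to UT was -2.68 ± 0.864 (adjusted p = 0.0152).

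Lep (chr6:29060220-29073877) encodes leptin, the hormone by which fat signals its energy store. It had 42.0 to 189 CPM in U (median 93.4), 0.402 to 87.1 in UN (median 20.2) and 0 to 68.2 in UT (median 1.71). No count was recorded in UT 1, which had 633 CPM of Adipoq. The groups overlapped through UT 6 (68.2 CPM), and the log2 fold change from U to UT was -3.10 ± 1.08 (adjusted p = 0.0226).

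Retn (chr8:3655770-3660110) encodes resistin, an adipokine made by white fat in the mouse. Its levels were 2179 to 4414 CPM in U (median 2469), 588 to 4261 in UN (median 2032) and 2.38 to 2063 in UT (median 629). UT lay below U without overlap (-2.37 ± 0.873, adjusted p = 0.0313), and 2 UN libraries, UN 2 and UN 6, exceeded all U libraries but U 3L.

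Cfd (chr10:79890853-79892655) encodes adipsin (complement factor D), the serine protease that starts the alternative pathway of complement. It alone took 27718 to 45356 CPM in U (median 30290), 5734 to 40109 in UN (median 13552) and 23.1 to 25040 in UT (median 8088). UT and U did not overlap, and the log2 fold change was -2.31 ± 0.872 (adjusted p = 0.0350).

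The coat of the lipid droplet was read through Plin1 (chr7:79720218-79732903), perilipin, which guards the droplet against lipases, and Cidec (chr6:113424634-113435760), which fuses droplets into the single large one. Plin1 was at 486 to 615 CPM in U (median 531), 51.8 to 639 in UN (median 150) and 0.288 to 485 in UT (median 41.1). For Cidec the levels were 4392 to 6050 CPM in U (median 5108), 906 to 4965 in UN (median 2382) and 3.96 to 2763 in UT (median 1035). In both genes UT lay below U without overlap. The log2 fold changes were -2.62 ± 0.956 for Plin1 (adjusted p = 0.0293) and -2.55 ± 0.848 for Cidec (adjusted p = 0.0179).

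Fatty acid handling was read through Fabp4 (chr3:10204088-10208576), the fatty acid binding protein of the adipocyte cytoplasm, and Lpl (chr8:68880491-68907448), the lipase that frees fatty acids from circulating lipoproteins. Fabp4 had 8501 to 13295 CPM in U (median 8781), 2051 to 12771 in UN (median 4079) and 27.3 to 8037 in UT (median 2061). Lpl had 4189 to 7353 CPM in U (median 6288), 365 to 5499 in UN (median 2122) and 7.20 to 4309 in UT (median 360). UT and U did not overlap for Fabp4, while UT 9 (4309 CPM) exceeded U 3L (4189 CPM) for Lpl. The log2 fold changes from U to UT were -2.22 ± 0.820 (adjusted p = 0.0315) and -2.68 ± 0.789 (adjusted p = 0.00869).

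The lipolytic enzymes are Pnpla2 (chr7:141455198-141460743), adipose triglyceride lipase, which takes the first fatty acid from triglyceride, and Lipe (chr7:25379527-25398710), hormone-sensitive lipase, which acts on the diglyceride left. Pnpla2 ran at 3102 to 3881 CPM in U (median 3470), 591 to 2822 in UN (median 1295) and 59.4 to 1976 in UT (median 484). Lipe ran at 775 to 1228 CPM in U (median 1030), 105 to 1363 in UN (median 232) and 9.79 to 905 in UT (median 57.3). Pnpla2 separated U from both UN and UT without overlap, and Lipe overlapped through UT 9 and UN 9. The log2 fold changes from U to UT were -2.34 ± 0.573 (adjusted p = 0.00246) and -2.59 ± 0.744 (adjusted p = 0.00744).

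The 30 adipocyte genes outside the members moved the same way: 29 were lower in UT than in U and 0 higher, with a median log2 fold change of -2.44. All 4 transcription factors were lower, among them Pparg (-2.17 ± 0.483, adjusted p = 0.00119), with 289 to 371 CPM in U and 9.61 to 229 in UT. The other genes named by rule were Fasn (-2.76 ± 0.996) and Scd1 (-2.76 ± 1.10) of fatty acid synthesis, Dgat2 (-2.88 ± 0.821) and Agpat2 (-2.45 ± 0.743) of triglyceride synthesis, and Acsl1, which activates fatty acids (-2.86 ± 0.688). Adrb3, the beta-3 adrenergic receptor that triggers lipolysis (-3.55 ± 1.07), the droplet protein Plin4 (-3.08 ± 0.857), Lgals12 (-3.30 ± 0.822) and Pck1, an enzyme of glycerol synthesis in fat (-3.04 ± 1.06), led their lists. Of the 7 brown fat genes 4 were lower and 0 higher. Of the 6 adipose stroma markers 0 were called in either direction (median -0.11), and of the 5 macrophage markers Cd68 (1.80 ± 0.394) and Lyz2 (1.5 ± 0.542) were higher. Endothelial markers were lower for 2 of 5 and higher for 0 (median -0.94). Smooth muscle markers were lower for 4 of 5, with Myh11 at -2.98 ± 0.749, and the urothelial markers Upk1a (-4.36 ± 0.699) and Upk2 (-1.98 ± 0.667) were lower while the basal keratin Krt5 was higher (3.0 ± 0.819). All 4 kidney tubule markers tested were higher, and UT 4 was the library in which they were abundant. With libraries of 1 mouse summed, 18 of the 30 adipocyte genes were lower and 0 higher, among them Pparg (adjusted p = 0.0303) but not Fasn, Scd1 or Pck1. In that fit 0 brown fat genes, 0 endothelial markers and 2 smooth muscle markers were lower, and 2 kidney tubule markers were higher. Cd68, Upk1a and Krt5 passed in it, and Lyz2 and Upk2 did not. Without UT 4, and without any other single library, all 10 members stayed past the thresholds. Single libraries moved 3 of the values by more than 1.5 times, as Plin1 was at -3.38 and Lipe at -3.29 without UT 9 and Lep at -3.71 without UT 6.

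**Figure D3:**
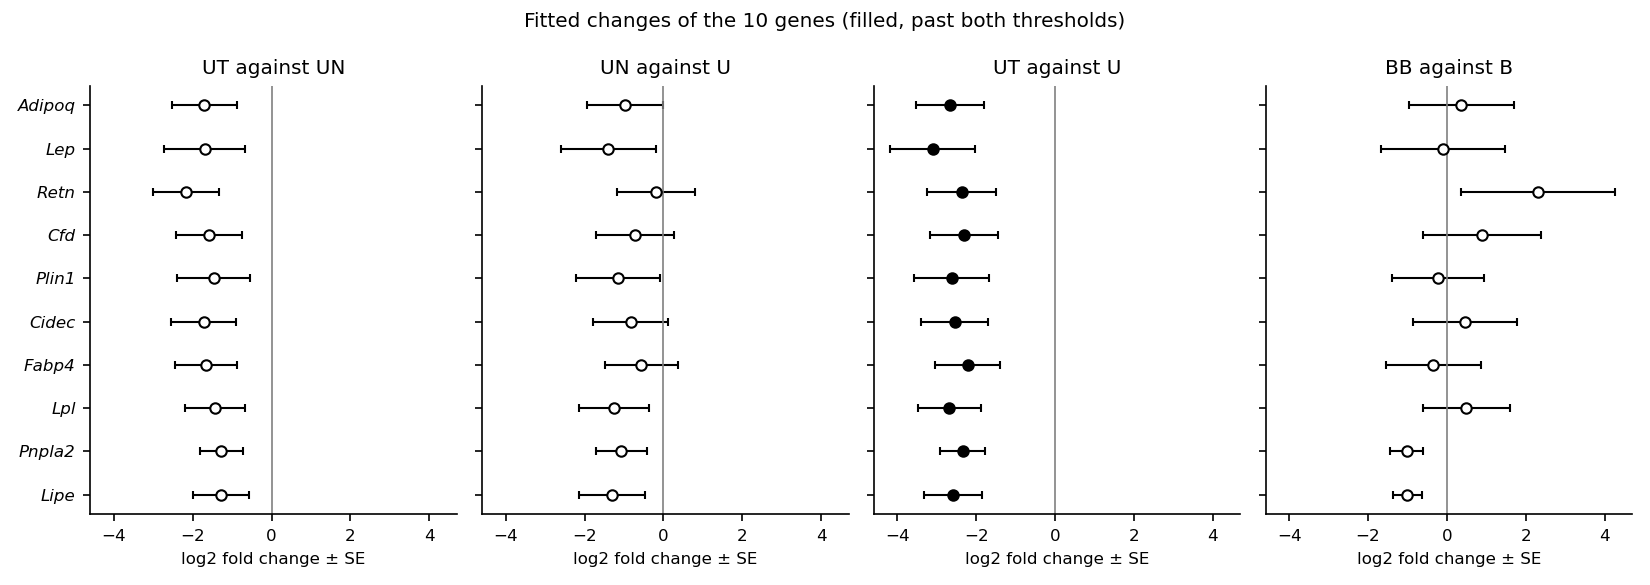
Log2 fold change with its SE (horizontal axis) of the 10 genes in 4 comparisons fitted by edgeR, with filled points for genes past both thresholds. All 10 points are filled for UT against U, and none is filled in the other 3 comparisons shown.

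Whether BBN without cancer went with a difference was asked by comparing UN with U. All 10 log2 fold changes were negative, from -1.40 ± 1.21 (Lep) to -0.19 ± 0.982 (Retn), but edgeR called 0 of the 10, and for 0 of them was the unadjusted p under 0.05. In this comparison 1.21% of all genes were called lower and 12.5% higher. With libraries of 1 mouse summed these shares were 0.0613 and 0.901%, and 0 members were called. DESeq2 called 0, where 1.89% of all genes were lower and 13.3% higher. With limma-voom 1 was called (Lep at -3.45, adjusted p = 0.048), where 3.74% of all genes were lower. The fit limited to the first range of library codes called 1 (Lipe at -2.06, adjusted p = 0.0497), where 4.08% were lower. With 1 library left out, Lep spanned -2.18 to -1.16 and Lipe -1.98 to -1.14, and neither was called. Pnpla2 lay below U in all 7 UN libraries (1 of 10 members, beside 1.15% of the 18157 genes, with 1.85% above), with a log2 fold change of -1.07 ± 0.647 (adjusted p = 0.276). Among the 30 other adipocyte genes only Pde3b, the phosphodiesterase through which insulin restrains lipolysis, was called (-1.34 ± 0.512, adjusted p = 0.0839). Its direction was lower. Of the macrophage markers Cd68 (2.05 ± 0.420) and Lyz2 (2.19 ± 0.590) were called higher in UN. None of these 3 genes passed with libraries of 1 mouse summed, at adjusted p = 0.313 for Pde3b, 0.126 for Cd68 and 0.216 for Lyz2 (edgeR). Leaving out UN 6, the UN library under 8000000 counts, also gave 0 members called, where 1.79% of all genes were lower and 10.3% higher.

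The ratio of each member to Adipoq within a library was examined after the values had been seen, and is given as a description. A two-sided exact permutation test on 1 value per mouse, chosen at the same point, gave p = 0.417 for Lep. The lowest p of the 9 genes in this test was 0.0333 for Retn, unadjusted, and no conclusion is drawn from it. Relative to 100 Adipoq counts of the same library, Lep had 1.53 to 6.16 counts in U. In UN it had 0.0365 counts in UN 1 and 0.107 in UN 4, and 1.33 to 7.13 in the other 5 libraries. These low ratios rest on 5 counts in UN 1 and 21 counts in UN 4, where Adipoq stood at 1101 and 1788 CPM. Plin1, Cidec and Retn varied over a narrower range. Plin1 had 12.5 to 20.9 counts per 100 in U and 10.7 to 23.7 in UN, and Cidec 147 to 175 in U and 135 to 317 in UN. Retn had 73.6 to 107 in U and 90.5 to 296 in UN, with UN 6 the highest. For all 9 genes the U and UN ranges overlapped.

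**Figure D4:**
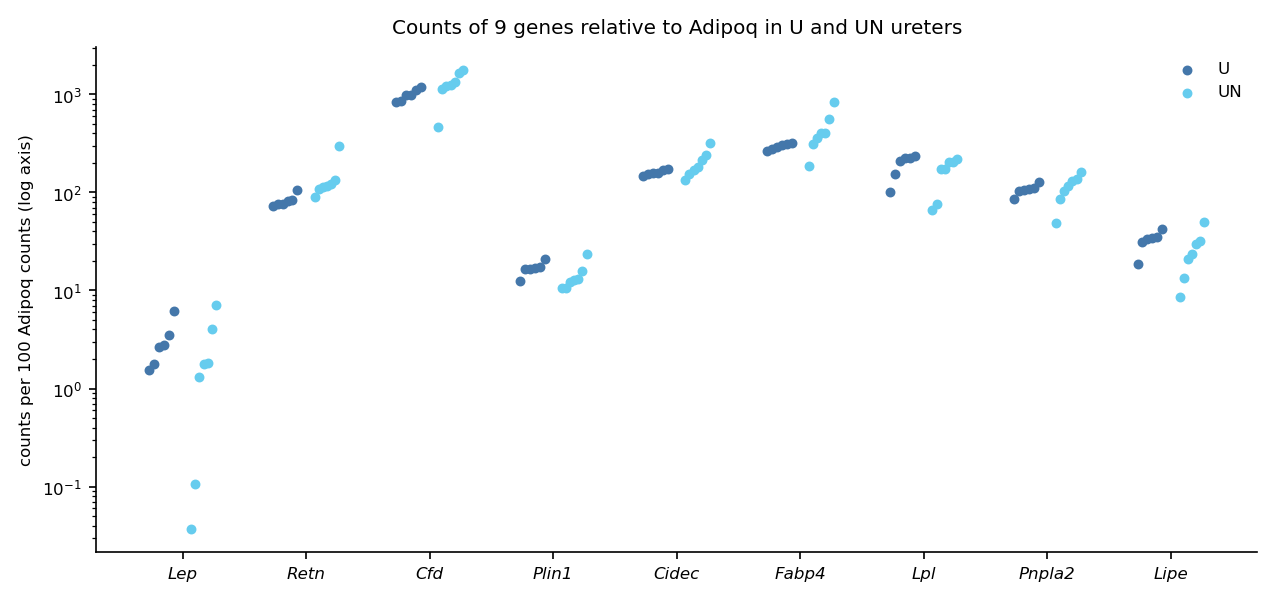
Counts of 9 genes per 100 Adipoq counts of the same library (vertical log axis) in the 6 U and 7 UN libraries. The 2 lowest UN points of Lep, at 0.0365 and 0.107, lie apart from the other Lep points.

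UT was compared with UN for the side with cancer against the side without it. All 10 members had negative log2 fold changes, from -2.17 ± 0.846 (Retn, adjusted p = 0.126) to -1.27 ± 0.552 (Pnpla2, adjusted p = 0.159). UT and UN overlapped in all 10 (0.00551% of the 18157 genes lay lower and 0.011% higher without overlap), and none passed the thresholds (0 of 10, where 4.2% of all genes were called lower and 1.32% higher), and 4 (Retn, Cidec, Fabp4 and Pnpla2) had an unadjusted p under 0.05. Their median was -1.62 beside -0.02 over all genes. DESeq2 called 1 (Retn, adjusted p = 0.0544), with 6.26% of all genes lower, and limma-voom 0, with 2 genes higher and 0 lower of all tested. The count rested on single libraries: without UT 9, which had the highest level of every member but Lep in UT, 6 genes were called lower (Adipoq, Retn, Fabp4, Lpl, Pnpla2 and Lipe), without UN 7 2 genes (Retn and Pnpla2) and without UN 3 1 gene (Retn). The lower calls over all genes rose with them, from 658 to 1245 (7.97%) without UT 9, 1240 (7.96%) without UN 7 and 1199 (7.68%) without UN 3. They fell to between 1 and 14 genes without UT 2, UT 5R, UT 5L, UT 10, UN 2 or UN 6. In a fit of UT and UN alone 0 of all 15151 genes were called, and with mouse as a replicate block 1 was, higher, so that the 0 members called in either fit say nothing particular to the members. Of the 30 other adipocyte genes 5 were called lower and 0 higher, namely Cebpa (-1.54 ± 0.471), Agpat2 (-2.16 ± 0.720), Dgat1 (-1.37 ± 0.470), G0s2, an inhibitor of Pnpla2 protein (-2.35 ± 0.722), and Abhd5, its activator (-1.03 ± 0.283). Pparg was at -1.23 ± 0.466 (adjusted p = 0.119). Of the brown fat genes, Cox8b (-3.49 ± 1.03) and Cox7a1 (-2.78 ± 0.789) led 4 called lower, and 3 smooth muscle markers were called lower too. These calls belong to the main fit. In the fit of UT and UN alone and in that with mouse as a block, none of these genes was called lower. With side as a covariate, 1 of all 15658 genes was lower.

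The 7 mice with a ureter on both sides did not move together. Adipoq, as log2(CPM + 1), differed between UT and UN (UT minus UN) by -10.3 in mouse 2 and -9.08 in mouse 4, by between -0.80 and 0.40 in mice 1, 3, 6 and 9, and by 1.33 in mouse 7. In mouse 2 it went from 3181 CPM on the side without cancer to 1.51 on the cancer side, and in mouse 4 from 1788 to 2.30. In mice 3 and 7 all 10 genes were higher on the cancer side, and in mouse 6 Cfd, Pnpla2 and Lipe were too. Mouse 2 is also the animal whose UN library had 10.2 summed CPM of urothelial markers, and mouse 4 that whose UT library carried kidney tubule markers. The mean difference over the 7 mice ran from -0.98 ± 2.25 (Lep, SD) to -2.96 ± 4.73 (Retn, SD). By the two-sided exact permutation test over sign flips, p was 0.156 for Retn, the lowest of the 10, where the smallest p that 7 mice allow is 0.0156. Without mouse 2 the mean difference of Adipoq was -1.5, and without mouse 4 it was -1.71.

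**Figure D5:**
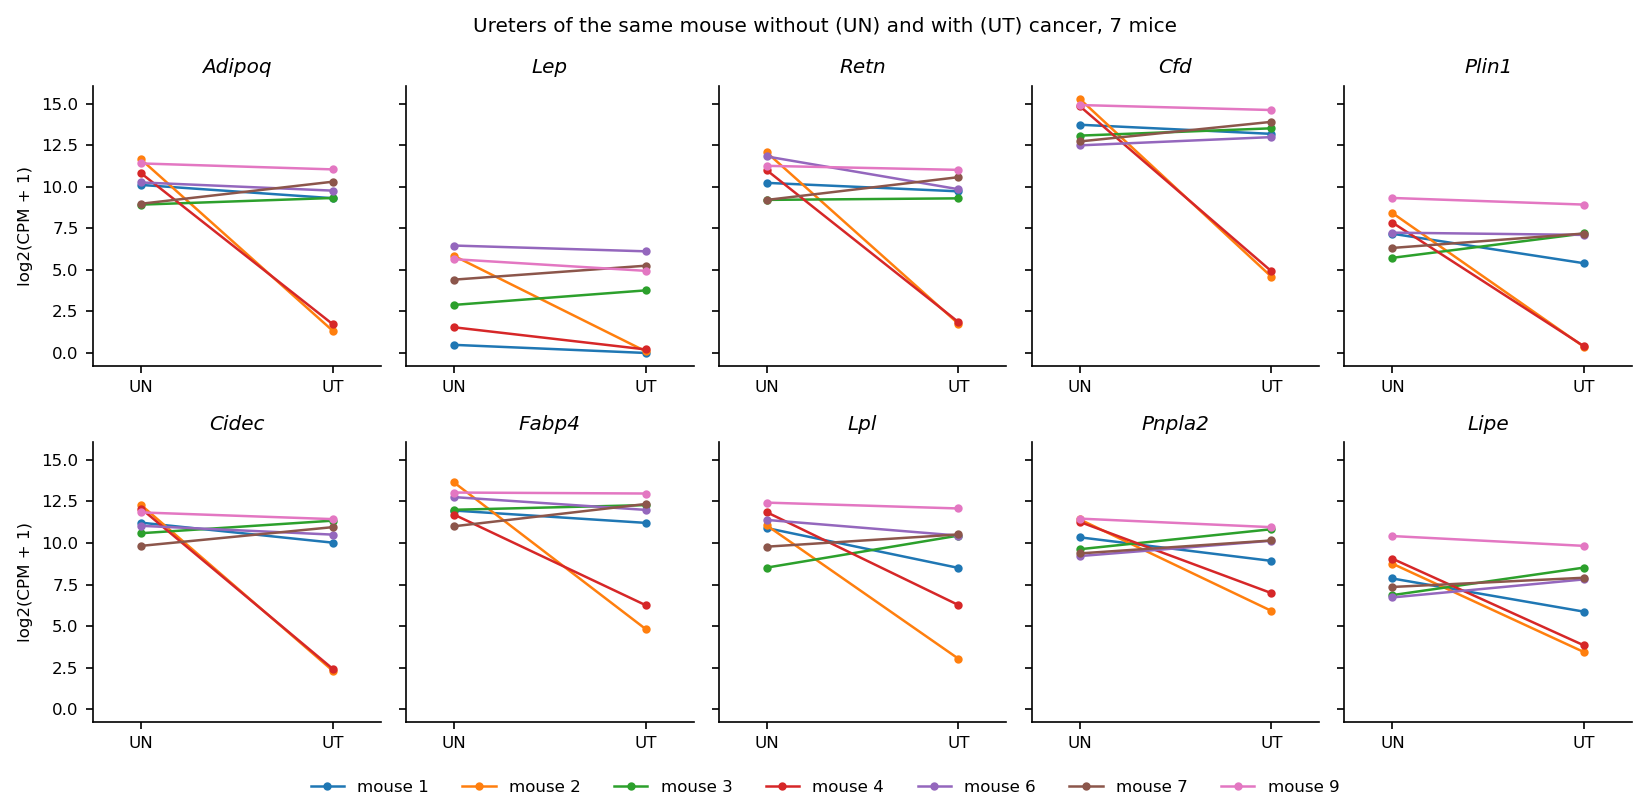
Level as log2(CPM + 1) on the vertical axis in the UN and UT ureter of the same mouse, 1 line per mouse (7 mice), for each of the 10 genes. Mice 2 and 4 fall steeply in most genes, and mice 3 and 7 rise in all 10.

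Within UT the members rose and fell with Adipoq. Over the 11 libraries (10 mice), the Pearson correlation of log2(CPM + 1) with Adipoq ran from 0.750 for Lep (permutation p = 0.00813, adjusted 0.00976; Spearman 0.773, permutation p = 0.0079) to 0.997 for Retn (permutation p = 1e-05, adjusted 3e-05, the smallest p the draws can give; Spearman 0.945, permutation p = 3e-05). Without UT 2 and UT 4, the libraries farthest from the median, r was 0.761 for Lep and 0.992 for Retn. In the 10 BB libraries the same values were 0.984 for Cidec (permutation p = 1e-05; Spearman 0.988, permutation p = 1e-05) and 0.789 for Lep (permutation p = 0.00937; Spearman 0.564, permutation p = 0.0969). For Lep the relation in BB rested on BB 1 and BB 3, without which r was 0.255. Fabp4 in BB fell from r = 0.870 to 0.534 without these libraries (Spearman with them 0.612, permutation p = 0.0671). In BB, Pnpla2 (r = 0.452, permutation p = 0.191) and Lipe (r = 0.177, permutation p = 0.625) did not pass, and without BB 1 and BB 3, 2 of the 3 BB libraries under 8000000 counts, r was 0.874 and 0.763. Adjustment was over 18 relations, and all points of a group share differences in tissue composition between libraries.

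Genes outside the list with the most similar pattern over all 37 libraries were found by the Pearson correlation of log2(CPM + 1) with the members' mean, given without a test because group differences enter it. The 10 highest of 18147 genes were Slc36a2 (0.990), Amy1 (0.989), Cd36 (0.988), Slc1a3 (0.981), Abcd2 (0.980), Slc7a10 (0.978), Car3 (0.977), Ces1f (0.976), A530016L24Rik (0.974) and Adig (0.968). In all, 127 genes exceeded 0.9. Slc36a2 and Slc7a10 are amino acid transporters and Car3 is a carbonic anhydrase abundant in white fat, with a median of 27389 CPM in U, 3428 in UT and 210 in B. Pparg, by contrast, reached 0.730 and Ucp1 0.863.

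In the bladder, BBN-treated and untreated mice were compared for the same 10 genes. Adipoq had 3.32 to 183 CPM in BB (median 9.82) beside 9.55, 121 and 4.39 in B. Cfd had 36.9 to 3234 CPM in BB (median 114) beside 115, 1210 and 53.8 in B. Fabp4 had 24.4 to 1477 CPM in BB (median 78.0) beside 480, 806 and 381 in B. BB and B overlapped in all 10 genes (11.9% of the 18157 genes lay lower and 4.91% higher without overlap), and BB 1 was the highest BB library for 7 of them (Adipoq, Retn, Cfd, Plin1, Cidec, Fabp4 and Lpl). Log2 fold changes ran from -1.02 ± 0.429 (Pnpla2, adjusted p = 0.142) to 2.32 ± 1.95 (Retn, adjusted p = 0.437), 5 positive and 5 negative, and 0 of 10 were called, where 7.61% of 18050 genes were called higher and 5.74% lower. Lipe, with 3.58 to 26.7 CPM in BB (median 15.8) and 25.6, 53.6 and 24.2 in B, was at -1.01 ± 0.370 (adjusted p = 0.106). DESeq2, which gave no adjusted p for 5 of the members, called 0, where 25.7% of all genes were higher and 6.39% lower. With limma-voom 0 were called, where 5.26% were higher and 7.98% lower. In edgeR 2 members had an unadjusted p under 0.05.

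The signs of the bladder values rested on single libraries, treated and untreated. Without BB 1, 8 of the 9 members tested were negative, without BB 3 4 of 9 and without BB 4 3 of 10. Without B 1 or without B 3, 7 of 10 were negative, with Adipoq at -0.17 and -0.23 and Cidec at -0.077 and -0.13. Without B 2, Adipoq moved from 0.37 to 2.98, Retn from 2.32 to 5.0, Lep to 2.82 and Plin1 to 1.72. In that fit 0 members were called, where 2.8% of all genes were higher and 2.77% lower. Without the 3 BB libraries of low total (BB 1, BB 3 and BB 4) together, 9 members could be tested, all 9 were negative and 1, Fabp4, was called lower (-2.84, adjusted p = 0.00315), where 9.02% of 15735 genes were called lower. Adipoq was then at -1.59, and Cfd moved from 0.88 to -1.29. Pnpla2 and Lipe were called without BB 5 (2 genes), and Lipe alone without BB 7 or without BB 9, where 5.79, 5.68 and 5.26% of all genes were lower. Among the other adipocyte genes, Pparg was lower in BB than in B (-2.09 ± 0.379, adjusted p = 0.00246), with 5.34 to 75.0 CPM in BB and 191, 222 and 229 in B and no overlap. Gpam (-2.69 ± 0.546) and Elovl6 (-2.02 ± 0.272) were lower too, and Sncg was higher (2.03 ± 0.649), so that of the 30 genes 5 were lower and 1 higher. Other cell type markers were called too. In BB, 4 of 6 adipose stroma markers (median -1.44) and 1 of 5 endothelial markers were lower, and 1 of 5 macrophage markers was higher. Beside them 4 of 5 urothelial markers were lower in BB, led by Upk1a (-5.67 ± 0.834). The part of the urothelium in the value of Pparg was not tested.

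Whether the BBN difference was of another size in the ureter without cancer than in the bladder was tested as an interaction over all 37 libraries. The 10 estimates ran from -2.5 ± 2.0 (Retn) to -0.02 ± 0.901 (Pnpla2), edgeR called 0 of them (0 at an unadjusted p under 0.05), and 0.469% of 18959 genes were called lower and 1.74% higher. DESeq2 called 0 as well, where 2.32% of all genes were higher and 2.56% lower. So did limma-voom, where 1.89% were higher and 0.448% lower. Without the libraries under 8000000 counts 7 of the 10 estimates were positive, so no direction is given for this difference.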

How the data were processed

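WTS was performed by the authors on ureter and bladder RNA of 37 libraries (SMARTer and Nextera XT kits, which do not mark strand). The submitters' processing notes name TopHat2 2.1.1, Cuffdiff 2.2.1 and the genome GRCm38/mm10. The deposited table holds estimated counts per gene symbol, made by the authors without normalization (21.1% of nonzero values are fractional), and 0 columns were left without a sample. Here the values were rounded to whole numbers and tested with edgeR 4.0.16 in R 4.3.3 (TMM, filterByExpr, quasi-likelihood test, Benjamini-Hochberg over all genes tested), and a gene was called at an FDR under 0.1 when it changed at least 2-fold. UT, UN and U shared one fit, BB and B another, U and B their own, and the interaction used all libraries. The SE is the log2 fold change divided by the root of the F statistic. The procedure was tested on simulated data. DESeq2 1.42.0, limma 3.58.1 (voom), RLE factors, no filter on low counts, each library left out, libraries under 8000000 counts left out, the first range of library codes alone, side as a covariate, libraries of 1 mouse summed and mouse as a block were alternatives. Scaling by total counts alone, the mice left out in turn and the ratios to Adipoq were chosen after seeing the data.

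Single values were compared on log2(CPM + 1), and correlations used 100000 permutations (Python 3.11.15, scipy 1.17.1). The within-mouse test had been planned for 6 mice, but the labels give 7, and all 7 were used. Equal numbers mark a shared mouse in UT and UN, and likewise in U and B. Deviations from the group means correlated by -0.198 to 0.699 over 7 UT and UN pairs (median 0.0417; -0.0146 for different mice) and by a median of 0.0169 for U and B. Within each group no library was a copy of another. Where mice are not the unit, p-values measure the spread between libraries. The library total limits precision, and genes of few counts carry wide counting error. Promoters are those of RefSeq.

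The 10 genes and all lists were chosen with earlier results of these data known. All 10 members and Pparg are named, with at most 2 genes per direction, list and comparison of the largest fold change past the thresholds, and the 10 genes most similar to the members' mean among those with at least 1 CPM in 3 libraries.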

Additional observations from a re-analysis of the deposited data

Results flagged for a closer look

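Single libraries stood far from the rest of their group by Dixon's test in 10 of 33 groups of values examined on the linear scale and in 3 of 33 on the log2 scale, where chance flags about 1 in 20. The values were the members and library totals in U, UN and BB, and UT and B were not examined. The 33 groups share libraries and are not independent, so their number cannot be set directly against chance. On both scales, Retn in U 3L at 4414 CPM was the highest of U, with U 2L next at 2670, and Cfd in U 3L at 45356 CPM was the highest, with U 1L next at 32885. The library total of UN 6, 4675081 counts, was the lowest of UN on both scales, with UN 2 next at 10941541.

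The other 7 values were far from their group on the linear scale only. Fabp4 in U 3L was at 13295 CPM, with U 2L next at 10242, while Lpl and Lipe were lowest of U in that library (4189 and 775 CPM). BB 1, a library of low total, was the highest of BB for Adipoq (183 CPM, next 70.8), Retn (757 CPM, next 197), Cfd (3234 CPM, next 540) and Fabp4 (1477 CPM, next 503). Pnpla2 in BB 5 was at 250 CPM, with BB 9 next at 110. Lipe in UN 9 was at 1363 CPM, with UN 4 next at 530.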

How the results depend on the processing

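The 10 higher members of U against B held under each alternative and each library left out (lowest and highest counts 10 and 10). The 10 lower of UT against U did so too, except with libraries of 1 mouse summed, where 3 were lower. That is the only fit of UT against U in which a mouse counts once in a group. In the other fits the right and left ureters of an untreated mouse count as separate libraries. For UT against UN the count was 1 with DESeq2 and 0 to 6 with a library left out. For UN against U it was 1 with limma-voom, 1 with the first range of library codes and 0 with any library left out, where Retn spanned -0.60 to 0.036. With mouse as a replicate block 10 members were called in U against B, as without it. For UT against UN, the block called 0 members and 1 of all 15151 genes, and the same libraries without it 0 genes, so that comparison says nothing about the effect of the pairing on the members. For BB against B the count was 1 without libraries under 8000000 counts and 0 to 2 with a library left out, and for the interaction it was 0 to 0 with a library left out. The number of members at p under 0.05 within mice was 0 to 0 with a mouse left out.

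The values of BB against B that changed sign were never past the thresholds, and DESeq2 gave no adjusted p for Adipoq, Lep, Retn, Cfd and Cidec there. With DESeq2 they were -0.57 for Adipoq, 0.23 for Lep, -0.62 for Cfd and 0.018 for Plin1, and with RLE factors 0.18 for Lep. With limma-voom they were -0.13 for Adipoq, -0.14 for Cidec and -0.41 for Lpl, and with total counts alone -0.32, -0.23 and -0.054 for the same genes. Without libraries under 8000000 counts Adipoq was at -1.59, Retn at -1.58, Cfd at -1.29, Cidec at -1.44 and Lpl at -0.70. With the first code range Lep was at 0.33 and Fabp4 at 0.034, and without the bladder of mouse 6 Lep was at 0.036. With a library left out the ranges, whose upper ends for these genes were reached without B 2, were -0.69 to 2.98 for Adipoq, 0.58 to 5.0 for Retn, -0.71 to 3.24 for Cfd, -0.79 to 1.72 for Plin1, -0.16 to 2.83 for Cidec, -0.052 to 1.53 for Lpl and -0.71 to 2.82 for Lep.

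The interaction changed sign for Fabp4 with total counts alone (0.40) and limma-voom (1.10), for Pnpla2 with total counts alone (0.15) and no filter (0.0038), and without libraries under 8000000 counts for Adipoq (0.56), Lep (0.91), Retn (1.01), Cfd (0.66), Plin1 (0.39), Cidec (0.56) and Fabp4 (2.09). With a library left out it spanned -3.83 to 0.033 for Lep, -3.93 to 0.068 for Cfd, -0.59 to 1.04 for Fabp4 and -0.29 to 0.25 for Pnpla2. The cause of these changes was not tested. Total counts alone, chosen after seeing the data, moved the median log2 fold change of all genes from 0.11 to 0.39 in UT against U, from -0.02 to 0.20 in UT against UN, from -0.02 to -0.40 in U against B and from 0.25 to -0.03 in BB against B; the members kept their signs in the ureter comparisons and in U against B. Low totals in 3 BB libraries, whose counts were also concentrated in few genes, limit what the bladder values can show.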
